A study of Mus musculus with 8 samples.

Results

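NRF2, the transcription factor encoded by Nfe2l2, and 9 genes known as its targets were followed in mouse liver after alcohol. The 10 genes were chosen by name (Nfe2l2, Hmox1, Nqo1, Gclc, Gclm, Srxn1, Txnrd1, Gsr, Osgin1 and Abcc4), with earlier results of these data known. All 10 have a row among the 21049 genes of the deposited expression table. RNA was sequenced from 8 wild-type samples, 4 given saline (control) and 4 given alcohol. The series' design text names the mouse strain as C57BL/6 and calls the treated mice alcohol-fed. The sources used here give no age, dose or length of feeding. The labels give liver as the tissue and also AML12, a mouse hepatocyte line. Nothing in those sources says that each library came from a separate animal, so p-values measure only the spread between these libraries, which may be technical.

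In resting cells NRF2 is held by KEAP1, an adaptor of a CUL3 ubiquitin ligase, and is degraded. Oxidants and electrophiles modify KEAP1, and NRF2 then builds up, pairs with a small Maf protein and binds antioxidant response elements near its targets. In liver this pathway is known for supplying glutathione and thioredoxin reducing power, for heme breakdown and for the conjugation and export of toxic compounds. Much of the control of NRF2 acts on the protein, which RNA sequencing does not measure.

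Promoter windows, from 250 bases before to 50 after an annotated start, were at hand from RefSeq (GRCm38.p6) for 7 of the 10 genes, and not for Hmox1, Gclc and Gsr. They were searched on both strands for the core letters of the antioxidant response element, TGACNNNGC, and for those of the AP-1 element, TGANTCA, which can share bases with a longer form of the first. The core was present in 5 of the 7 genes (Nfe2l2, Gclm, Srxn1, Txnrd1 and Abcc4), against 14.0% of the 27025 genes in that table. A gene counted if any of its windows matched, and Txnrd1 had 3 windows and Abcc4 2. By single window the core was present in 12.4% of all 32851 windows. In the 250 upstream bases alone it was present in 4 of the 7, without Srxn1, against 11.5%. The AP-1 letters were present in Srxn1, at 2 places, and in Osgin1, against 8.97% of genes. Each match is a match of letters, not a measured binding site. The stretches that hold a match are shown because they lie before an annotated start of genes that rose and of genes that did not pass the test. Those of Osgin1, of Txnrd1 and of the second start of Abcc4 lie before an internal start, within the gene's span. Capitals mark the matched letters, and the matches in Txnrd1, in Gclm and at the first start of Abcc4 are on the opposite strand:
Nfe2l2 (minus strand, chr2:75704834-75704913): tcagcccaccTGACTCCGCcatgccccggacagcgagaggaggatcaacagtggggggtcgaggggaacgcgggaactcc
Srxn1 (plus strand, chr2:152105415-152105494, AP-1 letters): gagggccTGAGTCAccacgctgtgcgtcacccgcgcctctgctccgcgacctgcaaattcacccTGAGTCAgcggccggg
Txnrd1 (plus strand, chr10:82859078-82859157): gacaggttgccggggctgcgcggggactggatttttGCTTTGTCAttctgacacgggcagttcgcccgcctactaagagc
Gclm (plus strand, chr3:122245387-122245466): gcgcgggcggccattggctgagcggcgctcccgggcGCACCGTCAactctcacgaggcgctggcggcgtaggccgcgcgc
Osgin1 (plus strand, chr8:119437014-119437093, AP-1 letters): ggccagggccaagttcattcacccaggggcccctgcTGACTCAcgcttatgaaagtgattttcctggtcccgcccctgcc
Abcc4, first start (minus strand, chr14:118706220-118706299): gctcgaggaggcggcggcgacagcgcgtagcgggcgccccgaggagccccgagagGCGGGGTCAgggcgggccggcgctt
Abcc4, second start (minus strand, chr14:118676932-118677011): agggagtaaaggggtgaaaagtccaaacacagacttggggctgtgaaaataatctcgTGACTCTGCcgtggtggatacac

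Values are FPKM, fragment counts scaled by gene length and by the library's total. Library totals recovered from the FPKM were 33872595 to 34789814 reads in controls and 37132631 to 38407511 with alcohol. Alcohol replicates 2 and 4 were much more alike than any other pair of the same group. Their chi-square of recovered reads was 10.1 per gene, against 56.6 for the next closest pair. Both were kept because they still differed by more than sampling noise. That difference cannot tell whether they came from separate animals or from the same RNA. Hepatocyte markers summed to 52244 to 60085 FPKM in controls and 47871 to 56875 FPKM with alcohol, and of the 5 tested Apoa1 and Ttr fell and none rose. Markers of Kupffer, endothelial and stellate cells, which a pure hepatocyte line would lack, were present. The 6 endothelial markers all rose, their sum going from 12.3 to 18.8 FPKM in controls to 55.9 to 65.7 FPKM with alcohol. Of 6 stellate markers 3 rose and none fell (sums of 37.8 to 68.3 and 99.0 to 140.3 FPKM), while the 8 Kupffer and macrophage markers summed to 21.1 to 76.8 and 26.0 to 48.8 FPKM, and of the 5 tested Cd68 fell and none rose. By the test described below 44.2% of all tested genes were called higher and 13.0% lower. The 3 of 6 stellate markers that rose are near that share. Monocyte and neutrophil markers summed to 1.71 to 4.50 FPKM in alcohol replicates 2 to 4 and to 33.3 FPKM in replicate 1. The part of these cell types in the results below was not tested, and in whole liver a change in cell number and a change in RNA per cell cannot be told apart.

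With alcohol 6 of the 10 genes rose, none fell and 4 did not pass the test. Of the 6, Abcc4 passed the expression minimum only through its alcohol libraries, and without it 5 of 9 rose. Those that rose were Hmox1, Abcc4, Srxn1, Nqo1, Nfe2l2 itself and Txnrd1. Those that did not pass were the 3 glutathione enzymes Gclc, Gclm and Gsr, and Osgin1. Groups were compared with limma on log2(FPKM + 1) over the 9228 genes averaging 1 FPKM or more, at a Benjamini-Hochberg adjusted p under 0.05. In this fit 44.2% of all tested genes were called higher and 13.0% lower, so a count of 6 of 10, or of 5 of 9, is read against that background. The 6 genes that rose were also the 6 whose alcohol libraries all lay above all controls, which held for 39.5% of all tested genes. The median log2 change was 0.78 over the 10 genes, 0.52 over the 9 without Abcc4 and 0.24 over all tested genes. With median-of-ratios scaling the all-gene median was -0.03 and 45.3% of called genes were higher, against 77.2% with FPKM as deposited; with quantile normalization the share was 49.1%. Changes were therefore also set against the 0.24 shift. Above it lay Hmox1 by 3.65, Abcc4 by 2.35, Srxn1 by 2.09, Nqo1 by 1.46, Nfe2l2 by 0.80, Txnrd1 by 0.27 and Osgin1 by 0.06. For Gsr, Gclc and Gclm the values relative to it were -0.14, -0.28 and -0.52.

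**Figure D1:**
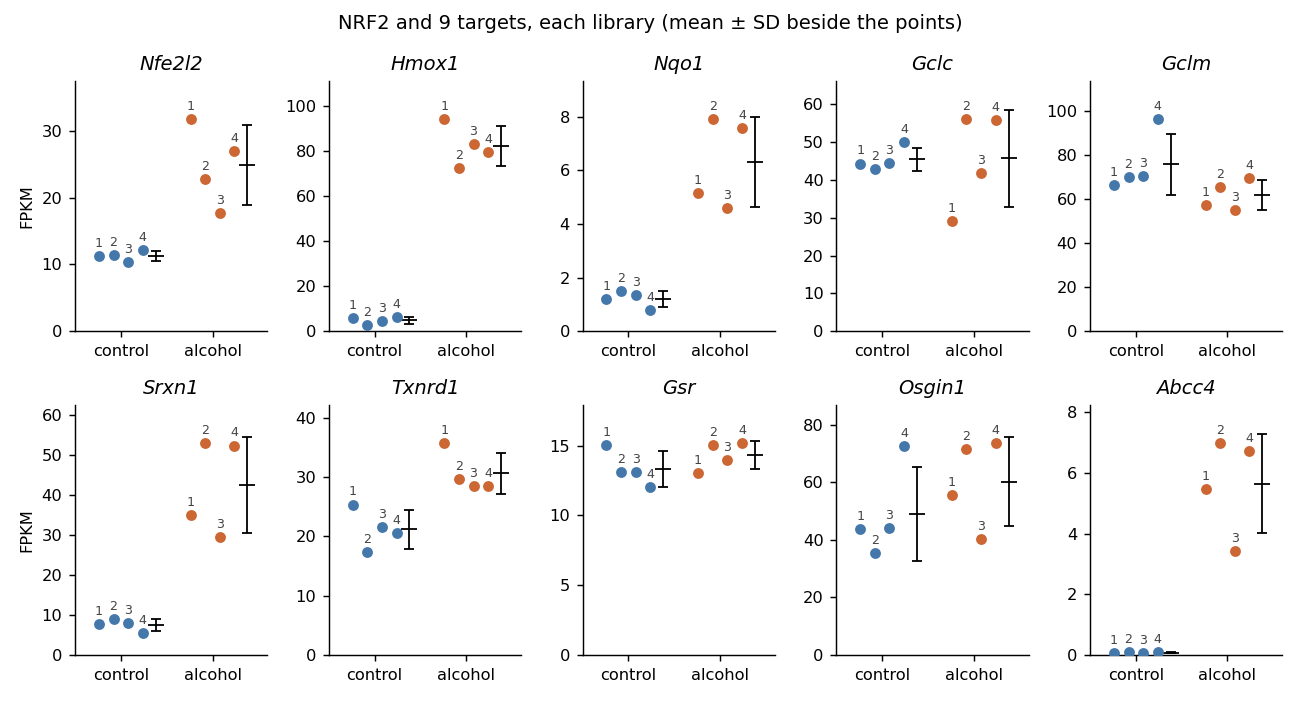
FPKM of each of the 10 genes in the 4 control (blue) and 4 alcohol (orange) libraries, numbered by replicate, with the mean ± SD in black beside them and each vertical axis starting at 0. The groups are apart for Nfe2l2, Hmox1, Nqo1, Srxn1, Txnrd1 and Abcc4, and overlap for Gclc, Gclm, Gsr and Osgin1.

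Nfe2l2, the regulator, stood at 11.3, 11.4, 10.4 and 12.1 FPKM in control replicates 1 to 4 and at 31.7, 22.8, 17.8 and 27.0 FPKM in alcohol replicates 1 to 4. Every alcohol library lay above every control, and the alcohol libraries were more spread out. The mean went from 11.3 ± 0.734 to 24.8 ± 5.96 FPKM (mean ± SD, 4 libraries a group), a 2.20-fold rise. The log2 change of Nfe2l2 was 1.04 ± 0.15 (SE), or 0.80 above the all-gene median, with a limma adjusted p of 0.00029.

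Hmox1 encodes the inducible heme oxygenase, which opens heme to biliverdin, iron and carbon monoxide. Its control values were 5.75, 2.59, 4.63 and 6.09 FPKM and its alcohol values 94.0, 72.2, 82.8 and 79.4 FPKM. The lowest alcohol library was still more than 10 times the highest control. This was the largest change of the list on log2(FPKM + 1), though not with an added 0.1, where Abcc4 was higher (5.03 against 4.14). It was a log2 change of 3.89 ± 0.19 (SE; limma adjusted p = 4.28e-07) that ranked 10 from the highest among the 9228 tested genes. Macrophages that clear red cells are known to express Hmox1. As given above, the Kupffer and macrophage markers did not move upward as a list, and the haemoglobin and other erythroid markers summed to 179 to 362 FPKM in controls and 122 to 196 FPKM with alcohol. Alcohol replicate 1, with the most Hmox1, was also the library with the most monocyte and neutrophil markers. Without that library the log2 change of Hmox1 was 3.83, which says nothing of the cell content of the other alcohol libraries. The part of any of these markers in the Hmox1 result was not tested.

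Of the thioredoxin arm, Srxn1 encodes sulfiredoxin, which repairs peroxiredoxins that have been overoxidized by peroxide. Srxn1 stood at 7.60, 8.87, 7.89 and 5.45 FPKM in controls and at 35.0, 53.0, 29.5 and 52.3 FPKM with alcohol. All alcohol libraries lay above all controls, with replicates 2 and 4 highest. The ratio of means was 5.70 and the log2 change 2.34 ± 0.20 (SE), with a limma adjusted p of 8.86e-06.

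Txnrd1 encodes cytosolic thioredoxin reductase, the selenoprotein that recharges thioredoxin with electrons from NADPH. It stood at 25.4, 17.4, 21.6 and 20.5 FPKM in controls and at 35.8, 29.8, 28.5 and 28.5 FPKM with alcohol. The groups did not overlap, but the gap between the highest control and the lowest alcohol library was smaller than the range of the controls. The rise was 1.44-fold, with a log2 change of 0.52 ± 0.13 (SE), 0.27 above the all-gene median, and a limma adjusted p of 0.00559. The Txnrd1 call was lost under median-of-ratios scaling, where its change was 0.19, the all-gene median -0.03 and the limma adjusted p 0.215. Over the alternatives the limma adjusted p ran from 0.00183 to 0.215.

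Of the glutathione arm, Gclc encodes the catalytic subunit of glutamate-cysteine ligase, the first and rate-limiting enzyme of glutathione synthesis. Gclc stood at 44.3, 42.9, 44.3 and 49.9 FPKM in controls and at 29.2, 56.0, 41.9 and 55.7 FPKM with alcohol. Alcohol replicates 2 and 4 were above every control and replicates 1 and 3 below every control, so the group means were nearly equal, 45.4 ± 3.10 and 45.7 ± 12.8 FPKM. The log2 change was -0.03, with a 95% interval of -0.44 to 0.37 and a limma adjusted p of 0.886. Without alcohol replicate 1 it was 0.16 (limma adjusted p = 0.314; 0.134 to 0.979 in all alternatives), and without replicate 3 it was -0.01. Without replicate 2, without replicate 4, or with those alike libraries averaged into 1, it was -0.14 each time.

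Gclm encodes the modifier subunit that raises the activity of the same ligase. It stood at 66.3, 70.2, 70.5 and 96.3 FPKM in controls and at 57.2, 65.6, 55.3 and 69.7 FPKM with alcohol. Of the 4 alcohol libraries 3 lay below all controls and replicate 4 lay among them. The log2 change was -0.28, with a 95% interval of -0.58 to 0.02 and a limma adjusted p of 0.104. Without control replicate 4, the highest, it was -0.16. Gclm was called lower under median-of-ratios scaling, at -0.61 (limma adjusted p = 0.00733; 0.00733 to 0.35 in all alternatives). In GENCODE M21 its exons share 244 bases with the pseudogene Gm6061 on the same strand and 296 with Gm17494 on the other. Some of its reads may therefore be uncertain, but whether any counted read falls there was not tested.

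Gsr encodes glutathione reductase, which returns oxidized glutathione to its reduced form. Its values were 15.0, 13.1, 13.1 and 12.0 FPKM in controls and 13.1, 15.1, 14.0 and 15.2 FPKM with alcohol. The groups overlapped, and Gsr had the narrowest interval of the list, a log2 change of 0.10 with a 95% interval of -0.12 to 0.32 (limma adjusted p = 0.412). With median-of-ratios scaling the change was -0.22, and with quantile normalization -0.14. None of the 3 glutathione genes passed as higher under any alternative tried, and the upper ends of their intervals lie below the lower ends of those of Hmox1, Abcc4, Srxn1, Nqo1 and Nfe2l2.

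Nqo1 encodes a quinone reductase that is widely used as a readout of NRF2 activity. It stood at 1.20, 1.49, 1.35 and 0.801 FPKM in controls and at 5.15, 7.91, 4.58 and 7.57 FPKM with alcohol, without overlap. The ratio of means was 5.21 and the log2 change 1.71 ± 0.17 (SE), with a limma adjusted p of 2.19e-05. Its reads were few in controls, 91 to 171 per library, against 590 to 984 with alcohol.

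Abcc4 encodes MRP4, an exporter of bile acids and other conjugates through the blood-facing membrane of the hepatocyte. It was nearly absent from controls, at 0.0537, 0.0800, 0.0666 and 0.0812 FPKM from 17 to 25 reads per library. With alcohol it stood at 5.47, 6.99, 3.42 and 6.72 FPKM, from 1196 to 2361 reads per library. The ratio of means was 80.3. The log2 change of 2.60 ± 0.17 (SE; limma adjusted p = 1.48e-06) understates this because of the added 1, and with an added 0.1 it was 5.03. Abcc4 passed the expression minimum only through its alcohol libraries, so it could hardly have been tested without also being higher.

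Osgin1 encodes an oxidative stress induced growth inhibitor. Its values were 43.6, 35.6, 44.2 and 72.6 FPKM in controls and 55.5, 71.5, 40.3 and 73.7 FPKM with alcohol. The groups overlapped widely, with control replicate 4 among the highest libraries of the whole set. The log2 change was 0.30, with a 95% interval of -0.21 to 0.82 and a limma adjusted p of 0.284. It was -0.03 with median-of-ratios scaling and 0.51 without control replicate 4 (limma adjusted p over the alternatives 0.0612 to 0.935).

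By the exact 2-sided permutation test of 4 libraries against 4, each of the 6 genes that rose had p = 0.0286, the smallest this design can give. That value follows from the lack of overlap given above and adds nothing to it. Of all tested genes 39.5% had every alcohol library above all controls and 10.7% had every one below. The other 4 had p = 0.914 (Gclc), 0.0571 (Gclm), 0.257 (Gsr) and 0.371 (Osgin1) by the same exact test.

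**Figure D2:**
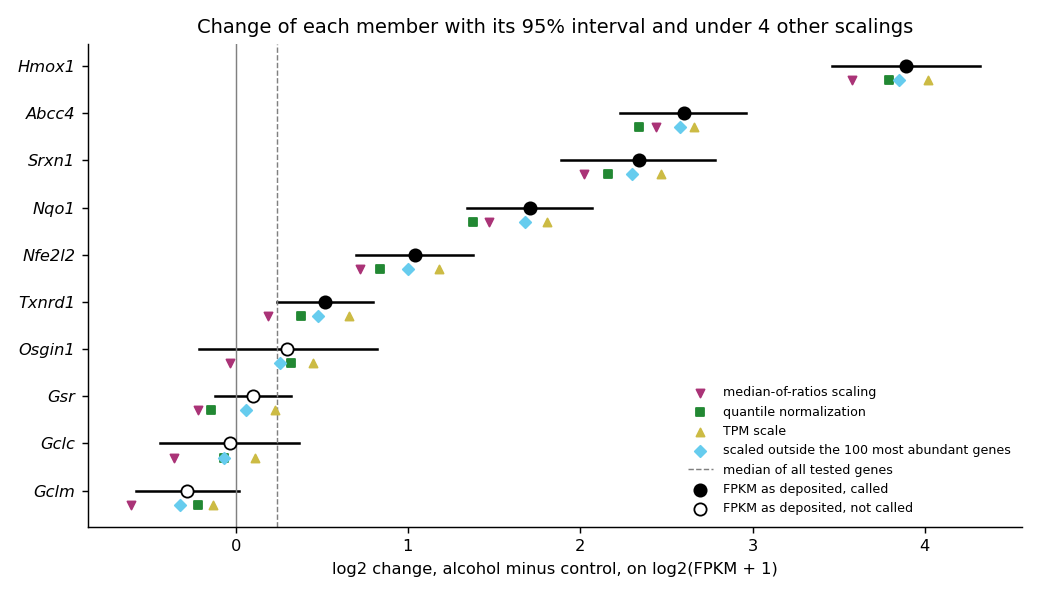
Log2 change of each gene, alcohol minus control, on log2(FPKM + 1), with its 95% interval (line), filled circles for genes past the limma threshold and open circles for the others. Coloured marks give the change under 4 other scalings, and the dashed line is the median of all tested genes, 0.24. The 5 largest changes stay above that line under each scaling, while Txnrd1 falls to 0.19 with median-of-ratios scaling. The line belongs to FPKM as deposited. The all-gene median was -0.03 with median-of-ratios scaling and -0.01 with quantile normalization. It was 0.36 on the TPM scale and 0.21 scaled outside the 100 most abundant genes.

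Because FPKM is per length, levels can be set side by side between genes, on the gene lengths the authors used. The lengths recovered from the values were 0.329 to 2.158 times the GENCODE exon length of the same gene, so the order is only as good as those lengths. In controls the level ran from Gclm (75.8 FPKM), Osgin1 (49.0 FPKM) and Gclc (45.4 FPKM) through Txnrd1, Gsr, Nfe2l2, Srxn1 and Hmox1 to Nqo1 and Abcc4. Neighbours in that order whose ranges overlapped were Gclm and Osgin1, Osgin1 and Gclc, Gsr and Nfe2l2, and Srxn1 and Hmox1. With alcohol Hmox1 stood first at 82.1 FPKM, above every library of Gclm, although the highest Osgin1 library (73.7 FPKM) was above the lowest of Hmox1 (72.2 FPKM). Abcc4 had the lowest mean, but its range overlapped that of Nqo1. The ranges of the genes from Gclm through Osgin1, Gclc, Srxn1 and Txnrd1 to Nfe2l2 overlapped from each to the next.

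The alcohol libraries took a similar order for many of the genes. Alcohol replicates 2 and 4 were the 2 highest alcohol libraries for 7 of the 10 genes (Nqo1, Gclc, Gclm, Srxn1, Gsr, Osgin1 and Abcc4), against 29.2% of all tested genes. For the other 3, Nfe2l2, Hmox1 and Txnrd1, replicate 1 was highest, against 33.8% of all tested genes. Relative to the mean of the alcohol group, replicate 3 lay at 0.606 for Abcc4, 0.669 for Osgin1, 0.694 for Srxn1, 0.715 for Nfe2l2 and 0.727 for Nqo1, and at 1.01 for Hmox1. Among the controls replicate 4 was highest for 6 of the 10 genes, including Gclm and Osgin1, against 14.3% of all tested genes, yet lowest for Nqo1, Srxn1 and Gsr. These orders are a description of 8 libraries, and replicates 2 and 4 of the alcohol group are the pair that was unusually alike.

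**Figure D3:**
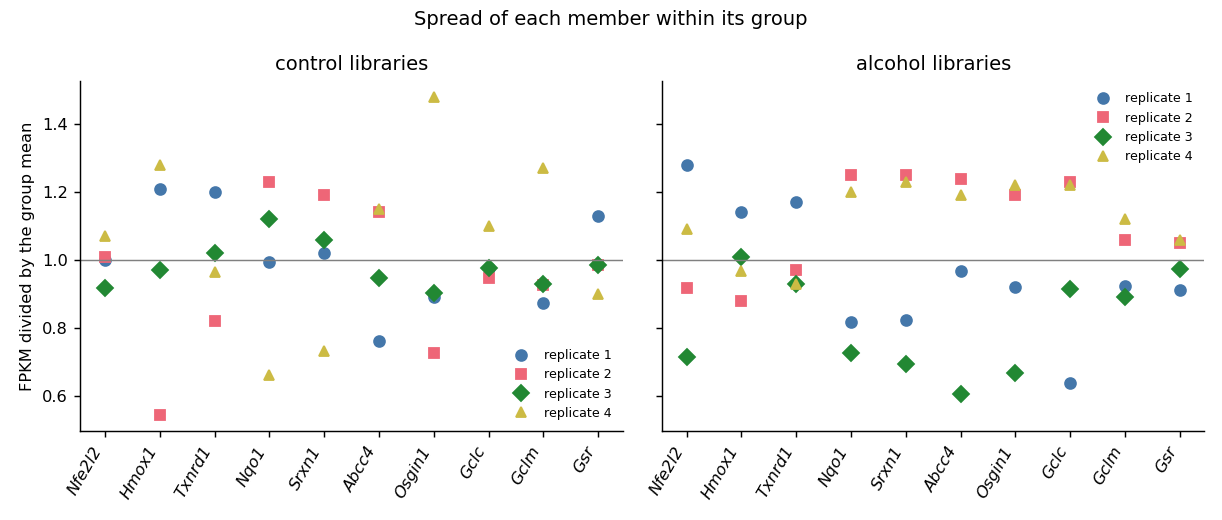
FPKM of each gene in each library divided by the mean of its group, controls on the left and alcohol on the right, with 1 symbol per replicate number. In the alcohol group replicates 2 and 4 lie together above 1 for Nqo1, Srxn1, Abcc4, Osgin1, Gclc, Gclm and Gsr, and replicate 1 is highest for Nfe2l2, Hmox1 and Txnrd1.

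Related genes were read from 6 lists of the wider pathway, which leave out the 10 genes. The lists were chosen with earlier results of these data known. Their shares beside those of all tested genes are therefore a description, not an independent comparison. Of 11 tested genes that control or partner NRF2, 8 rose and 1, Rbx1, fell, against 44.2% and 13.0% of all tested genes. The median log2 change was 0.64. Mafk passed the expression minimum only through its alcohol libraries, and without it 7 of 10 rose, with a median of 0.56. The Rbx1 call was lost on the TPM scale and when any of control replicates 2, 3 and 4 and alcohol replicates 1 and 3 was left out. Sqstm1, whose product p62 binds KEAP1 and draws it into autophagy, rose from 52.0 ± 4.65 to 225 ± 45.1 FPKM (mean ± SD, 4 libraries a group). The small Maf partner Mafk rose from 0.685 ± 0.217 to 2.58 ± 1.11 FPKM and the related factor Nfe2l1 from 12.5 ± 2.48 to 22.7 ± 2.39 FPKM. Fbxw11, a receptor of the second ligase that can mark NRF2 for degradation, rose from 4.04 ± 1.13 to 8.32 ± 0.767 FPKM. Keap1 itself rose from 7.98 ± 0.840 to 11.5 ± 0.786 FPKM (log2 change 0.48, limma adjusted p = 0.0021), which did not pass under median-of-ratios scaling or quantile normalization (limma adjusted p = 0.124 and 0.0603; 0.00071 to 0.124 in all alternatives). Bach1, the repressor that competes for the same elements and is released by heme, stood at 5.35 ± 1.46 and 5.63 ± 1.26 FPKM (limma adjusted p = 0.744). With median-of-ratios scaling 5 of the list rose, and with quantile normalization 4. Under those scalings 2170 and 2221 of the 9228 tested genes rose, against 4080 with FPKM as deposited.

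Of 15 tested other genes of glutathione handling, 3 rose and 5 fell, against 44.2% and 13.0% of all tested genes, with a median log2 change of 0.05. The glutathione peroxidase Gpx1 fell from 1492 ± 161 to 668 ± 46.5 FPKM (mean ± SD, 4 libraries a group). The glyoxalase enzymes Glo1 and Hagh, which use glutathione to clear methylglyoxal, fell from 125 ± 7.13 to 89.5 ± 3.90 FPKM and from 65.9 ± 2.93 to 37.7 ± 2.09 FPKM. Slc3a2, the shared heavy chain of several amino acid transporters, rose from 3.11 ± 0.384 to 8.63 ± 0.171 FPKM. Gss, the second enzyme of glutathione synthesis, and the cystine carrier Slc7a11 were chosen after their values were seen. Gss rose from 42.7 ± 6.25 to 60.7 ± 9.27 FPKM (limma adjusted p = 0.0117), and Slc7a11, too low to be tested, reached at most 0.0195 FPKM in any library. With median-of-ratios scaling 1 gene of this list rose and on the TPM scale 5 did. Under those scalings 2170 and 4858 of the 9228 tested genes rose, against 4080 with FPKM as deposited.

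In the thioredoxin list none of 12 tested genes rose and 3 fell, against 44.2% and 13.0% of all tested genes. Srxn1 and Txnrd1, which that list leaves out, rose. Txn1, the cytosolic thioredoxin that Txnrd1 recharges, fell from 204 ± 37.5 to 113 ± 29.9 FPKM (mean ± SD, 4 libraries a group), with a log2 change of -0.86 ± 0.20 (SE) and a limma adjusted p of 0.00397. The peroxiredoxin genes Prdx5 and Prdx2, whose products reduce peroxides, fell from 192 ± 28.3 to 127 ± 15.2 FPKM and from 87.2 ± 12.3 to 64.2 ± 9.28 FPKM. The Prdx2 call was lost when any of control replicates 2 and 3 and alcohol replicates 1 and 3 was left out (limma adjusted p of 0.0529 to 0.0604). The number that fell was 9 with median-of-ratios scaling, where 2616 of the 9228 tested genes fell, against 1203 with FPKM as deposited. By quantile normalization or on the TPM scale 1 gene of the list rose, where 2221 and 4858 of all tested genes did.

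Of 20 tested genes for conjugating and reducing enzymes and exporters, 16 rose and none fell, against 44.2% and 13.0% of all tested genes. The median log2 change was 1.27, against 0.24 over all tested genes. Gsta1, Cbr3 and Akr1b8, named for this reason after their values were seen, passed the expression minimum only through their alcohol libraries, and without them 13 of 17 rose, with a median of 1.07. The glutathione transferase Gstm3 rose from 16.2 ± 4.04 to 301 ± 123 FPKM and Gstm4 from 11.2 ± 2.15 to 68.1 ± 26.6 FPKM (mean ± SD of 4 libraries). Members of this family are near-identical, so their reads are uncertain one by one. Cyp2a5, a cytochrome P450, rose from 267 ± 14.0 to 1500.2 ± 542 FPKM and the oxidoreductase Htatip2 rose 4.87-fold, from a control level of 12.7 ± 0.472 FPKM. Between 15 and 16 genes of this list rose under every alternative tried.

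NADPH is the electron donor of Gsr, Txnrd1 and Nqo1. The list for its supply holds enzymes that make it and enzymes of the pentose phosphate pathway that do not, Taldo1 among them. Of 6 tested genes 2 rose and 2 fell (33.3% each, against 44.2% and 13.0% of all tested genes). Me1, the malic enzyme, rose from 46.8 ± 10.2 to 78.0 ± 11.6 FPKM and Pgd, of the pentose phosphate pathway, from 14.3 ± 1.86 to 25.4 ± 6.63 FPKM, while Taldo1 fell from 100.1 ± 15.9 to 56.8 ± 2.93 FPKM and Idh1 from 159.9 ± 10.7 to 97.1 ± 1.15 FPKM (mean ± SD, 4 libraries a group). Neither rise passed with median-of-ratios scaling.

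Beside Hmox1, 2 of 6 tested genes of heme breakdown and iron storage rose and none fell, a share of 33.3% that is below the 44.2% of all tested genes. Hmox2, the constitutive heme oxygenase, rose from 19.2 ± 1.43 to 41.7 ± 1.57 FPKM and the ferritin heavy chain Fth1 from 1485 ± 183 to 2425 ± 572 FPKM (mean ± SD, 4 libraries a group). Fth1 did not pass under median-of-ratios scaling (limma adjusted p = 0.172; 0.00119 to 0.172 in all alternatives).

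**Figure D4:**
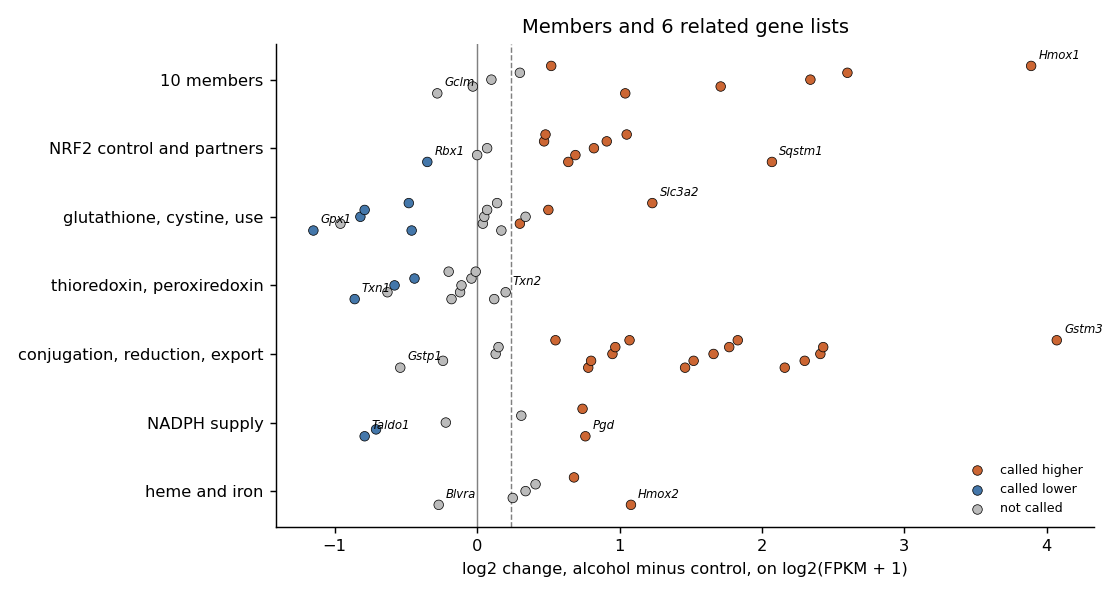
Log2 change, alcohol minus control, on log2(FPKM + 1), of the tested genes of the 10-gene list and of 6 related lists, 1 point per gene, orange for called higher, blue for called lower and grey for not called. The dashed line marks the median of all tested genes, 0.24, and the lowest and highest gene of each list are named. The conjugation list lies mostly to the right of that line and the thioredoxin list to its left.

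In GENCODE M21 on GRCm38 all 10 genes are protein-coding. Nfe2l2 lies on chr2:75675513-75704641 (minus strand), Srxn1 on chr2:152105516-152111376 (plus strand), Gclm on chr3:122245557-122270732 (plus strand) and Gclc on chr9:77754535-77794485 (plus strand). On chromosome 8 lie Gsr (chr8:33652523-33698163, plus strand), Hmox1 (chr8:75093621-75100589, plus strand), Nqo1 (chr8:107388225-107403206, minus strand) and Osgin1 (chr8:119434124-119446256, plus strand). Txnrd1 lies on chr10:82833951-82897712 (plus strand) and Abcc4 on chr14:118482692-118706219 (minus strand). Among the 10 genes, Gclm has exons that overlap those of another annotated gene, and the other 9 do not.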

How the data were processed

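The deposited table holds FPKM for 21049 gene symbols in 8 libraries, computed by the authors and described as FPKM per the labels. All 8 columns were used, and each was tied to its sample by the library name in the labels. Per the submitters' processing notes the genome builds were GRCm38 and mm10, and the sources used here name no aligner, counter, annotation or strand setting. Per the labels' protocols, libraries were made from total RNA with a SMARTER mRNA kit.

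Whole reads and gene lengths were recovered from the FPKM. A whole library total and the smallest whole length turned all 8 values of each of 21049 genes (100.0%) into whole reads, to a tolerance of 1e-05 of a read. Where a gene's reads share a factor, the recovered reads and length are smaller than the true ones. Since FPKM is relative to the library total, abundant transcripts that change shift the FPKM of all other genes.

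The test was limma 3.58.1 (R 4.3.3), with a trend in the variance, on log2(FPKM + 1) of genes averaging 1 FPKM or more in the 8 libraries. P-values were 2-sided and adjusted by Benjamini-Hochberg over the 9228 tested genes. The fit was also run on simulated data with independent libraries and no shift over all genes. That run cannot tell how it behaves with such a shift or with an unusually alike pair. Named genes were the 10 members, up to 4 genes of each related list by smallest p, Keap1 and Bach1, and the 5 genes most like the members. The members and lists were chosen with earlier results of these data known. Alternatives were another pseudocount, 2 other filters, 4 other scalings, no variance trend, a replicate block and each library left out. Chosen after seeing the data were voom (in limma) on the recovered reads and averaging alcohol replicates 2 and 4. Intervals are 95% limma intervals. Promoter windows and GENCODE M21 positions were matched by symbol. Of the markers, Tf, Trac and Igkc were not analysed here.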

Additional observations from a re-analysis of the deposited data

Results flagged for a closer look

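In 3 of the 76 sets of 4 libraries checked (1 gene in 1 group), 1 library stood far from the other 3 of its group, where chance flags about 1 group in 20. Gclm stood at 96.3 FPKM in control replicate 4, against 66.3 to 70.5 FPKM in the other controls. The partner gene Mafk stood at 4.25 FPKM in alcohol replicate 1, against 2.01 to 2.06 FPKM in the others. The malic enzyme Me1 stood at 60.8 FPKM in alcohol replicate 1, against 82.4 to 85.9 FPKM in the others.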

How the results depend on the processing

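Of the 10 genes, Nfe2l2, Hmox1, Nqo1, Srxn1 and Abcc4 passed as higher in all 19 alternatives run. With median-of-ratios scaling 2170 genes were higher and 2616 lower, Txnrd1 was 0.19 and not called, Gclm -0.61 and called, Gsr -0.22, Osgin1 -0.03 and Bach1 -0.21, 1 member was lower, and the lists had 5 control genes higher, 1 glutathione gene higher, 9 thioredoxin genes lower, 2 conjugation genes lower, 0 NADPH genes higher, and 1 heme and iron gene higher and 1 lower. With quantile normalization 2221 genes were higher and 2307 lower, Gsr was -0.14, Bach1 -0.24 and Ccnyl1 -0.06, 4 control genes and 1 thioredoxin gene were higher and 1 heme and iron gene lower. On the TPM scale 4858 genes were higher and 810 lower. Gclc was 0.11 on that scale, 0 control genes were lower, and 5 glutathione, 1 thioredoxin and 4 heme and iron genes were higher. Scaled outside the 100 most abundant genes, 3751 genes were higher and 1343 lower, and 1 heme and iron gene was lower. With no filter on low values 2 control genes were lower and 1 thioredoxin gene higher. With alcohol replicates 2 and 4 averaged, 1 conjugation gene was lower. The cause of these differences was not tested.

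The replicate numbers gave deviations that correlated at 0.349, 0.216, 0.071 and 0.28 between same-numbered libraries, so they were not taken as pairs. With the replicate block 4307 genes were higher and 1380 lower, Gclm (-0.28) passed as lower, so 1 member was lower, and 1 conjugation gene was lower. Alcohol replicates 1 and 4 correlated best with the control of their own number, and replicates 2 and 3 with another.

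Leaving out 1 library at a time gave -0.14 to 0.16 for Gclc, -0.05 to 0.19 for Bach1, 0 to 1 control genes lower, 0 to 1 conjugation genes lower and 0 to 1 heme and iron genes lower. Members higher stayed at 6. Depth limits Abcc4 most, at 17 to 25 reads per control library.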

Other observations

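The 5 genes whose level over the 8 libraries most resembled the averaged, standardised level of the 10 genes were Tmem259 (Pearson r = 0.991), Ccnyl1 (0.988), Mepce (0.987), Cxcl16 (0.985) and Pdf (0.983). They were picked for this value out of all tested genes, so it carries no test, and the points share 2 groups and the pair of alike alcohol libraries. Cxcl16, a chemokine, rose from 1.94 ± 0.222 to 3.76 ± 0.885 FPKM and Tmem259, a membrane protein, from 42.1 ± 2.61 to 59.7 ± 7.36 FPKM (SD, n = 4 per group). Under quantile normalization Cxcl16 lost its call (limma adjusted p = 0.0703; 0.000474 to 0.0703 in all alternatives). Under median-of-ratios scaling Tmem259 lost its call, at a limma adjusted p of 0.259 (0.000587 to 0.259 in all alternatives).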
